A study of Mus musculus with 6 samples.

Results

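The enzymes of oxidative phosphorylation form complexes I to V in the inner mitochondrial membrane, and the nuclear genes for their subunits are described here. They were chosen by symbol: every known gene in the table whose symbol is Nduf, then a, b, c, s or v, then only digits, every Sdh subunit, every Uqcr gene, Cyc1, the Cox genes of families 4i, 5, 6, 7 and 8, and every Atp5 gene. The rule gave 82 of the 15803 genes in the table, 36 in complex I, 4 in complex II, 9 in complex III, 16 in complex IV and 17 in complex V. The rule used no measured value.

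RNA from growth plate cartilage of mouse embryos at embryonic day 18.5 was sequenced in 6 libraries. The 3 libraries labelled CKO are from Col2a1-Cre;Hnrnpk fl/fl embryos and the 3 labelled WT are from Hnrnpk fl/fl embryos, so the floxed allele is shared and Cre is the difference. Hnrnpk encodes an RNA-binding protein, and the study asked, among other things, how energy metabolism of the growth plate changes without it. The libraries measure bulk tissue, whereas Col2a1-Cre acts where Col2a1 is or was expressed, chiefly in chondrocytes, and which cells of the dissected piece recombined was not measured here.

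Complexes I and II feed electrons from NADH and succinate into ubiquinone, complex III passes them to cytochrome c, and complex IV hands them to oxygen. Complexes I, III and IV pump protons out of the mitochondrial matrix, and complex V, the ATP synthase, lets the protons back in and makes ATP. Each complex joins several nuclear subunits, and all but complex II also hold subunits encoded in mitochondrial DNA. In hypertrophic chondrocytes, mitochondria are also known to take up calcium before the matrix mineralises.

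Values are CPM, that is reads on a gene per 1000000 reads on all listed genes, and 3 values in a row follow the order of the library numbers. The whole reads behind them were recovered and summed to 1379674 in WT 1, 1332542 in WT 2, 1183743 in WT 3, 1454094 in CKO 1, 1385468 in CKO 2 and 1153871 in CKO 3. At this shallow depth a single read equals 0.688 to 0.867 CPM, and 3 reads, taken as the floor of detection, equal 2.06 to 2.60 CPM. Floors cover counting error only. Each gene was tested with limma on log2(CPM + 1), a scale that understates changes of genes with few reads, and log2 fold changes are CKO over WT on that scale. A gene was called at an adjusted p under 0.05, with Benjamini-Hochberg adjustment over all 12155 genes tested.

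Hnrnpk (ENSMUSG00000021546, chr13:58391142-58403343 of GRCm38, minus strand), the targeted gene, stood at 842, 955 and 944 CPM in WT 1 to 3. It stood at 759, 949.9 and 780.0 CPM in CKO 1 to 3. CKO 1 and CKO 3 were lower than all libraries labelled WT, but CKO 2 lay inside the WT range. The log2 fold change was -0.14 with a standard error of 0.15, and limma gave an adjusted p of 0.622. Without CKO 2 the log2 fold change was -0.25 (limma's adjusted p = 0.226), and without CKO 1 it was -0.084. These are whole-gene values, with 3 near-identical pseudogenes that could share reads, and the deleted exons were not measured on their own. The Hnrnpk level therefore does not check the label of CKO 2. WT 1 to WT 3 and CKO 1 to CKO 3 mean the libraries labelled so, and every direction below rests on those labels.

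The tissue was described by 12 chondrocyte markers, all of them tested. Their summed level was 24886, 25562 and 31036 CPM in WT 1 to 3 against 5687, 5916 and 5645 CPM in CKO 1 to 3. Each library labelled CKO, CKO 2 included, was far below each library labelled WT. Cnmd was the most abundant marker in WT, with a mean of 9616 CPM against 1548 CPM in CKO, and Col2a1 had the highest mean in CKO, 1596 CPM against 3266 CPM in WT, and none of the 12 was at 0. Of the markers 10 fell and 0 rose by limma's adjusted p, against 2.60% and 3.18% of all genes. Among those that fell were Matn1 with a log2 fold change of -3.76 (adjusted p = 2.26e-05, lower in 3 of 3 libraries labelled CKO) and Comp with -3.08 (adjusted p = 2.26e-05, likewise lower in 3 of 3). Both were past the threshold in each of 14 alternative settings, with adjusted p up to 0.0109 for Matn1 and 0.0109 for Comp. Sox9 (log2 fold change -0.83, limma's adjusted p = 0.137) and Hapln1 (-0.20, limma's adjusted p = 0.518) overlapped between genotypes and were not called. The paper had already reported Matn1, Comp and Cnmd as lower in CKO, so their fall here is no separate check. In bulk samples fewer cells of a type and less RNA per cell cannot be told apart, and neither can be told apart from more RNA of other cells when a share of reads goes up.

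Libraries also differed within a group. The chi-square of a pair of libraries over its degrees of freedom, near 1 when only counting noise separates them, was 1.27 for CKO 1 and CKO 3 and 1.91 for WT 1 and WT 2. For the other pairs of the same genotype it lay between 7.43 and 12.1. CKO 2 and WT 3 thus each stood apart from the remaining pair of their genotype. The calls of members and their median are given with and without CKO 2. Nothing in the labels says that the libraries came from separate animals, and p-values then measure the spread between these libraries, which may be technical.

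Across all complexes, the subunits were on balance slightly higher in CKO 1 and CKO 3, while CKO 2 stayed near the WT level. The median log2 fold change of the 81 members tested was 0.12, against 0.013 over all genes tested, and it was above 0 in 54 of 81 (66.7%, against 50.8% of all genes). Limma called 2 members, against 5.78% of all genes tested. Ndufa4 rose and Cox7a2l fell, while of all genes 3.18% rose and 2.60% fell, shares above those of the members. The libraries of each genotype were apart, with no overlap, in 26 members that were higher and 5 that were lower in CKO, which is 32.1% and 6.17% of the members tested, against 14.5% and 13.2% of all genes. An unadjusted p under 0.05 was reached by 15 members with higher and 4 with lower values, where all genes gave 11.2% and 10.1%. The study's own criterion asks for an unadjusted p under 0.05 and a log2 fold change beyond 1 in either direction. It took in 2 members, against 10.4% of all genes, namely Cox6b2 on the higher side (5.30% of all genes) and Cox6a2 on the lower side (5.10%). With CPM rescaled by TMM factors the median of the members was 0.071 and that of all genes -0.028. The median of the members was 0.24 without CKO 2 and 0.041 without CKO 1. With CKO 1 and CKO 3 averaged into 1 library it was 0.065, against 0.026 over all genes tested.

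The sum over all 82 members was 36887, 36017 and 36516 CPM in WT 1 to 3 against 42836, 35924 and 42367 CPM in CKO 1 to 3. CKO 1 and CKO 3 stood above all libraries labelled WT, and CKO 2 stood just below them. The means were 36473 ± 437 CPM in WT and 40376 ± 3862 CPM in CKO (SD, n = 3), a ratio of 1.11, and the spread within CKO was close to the difference. Measured gene by gene against the WT mean, the median deviation on the log2 scale was 0.23, 0.0069 and 0.21 in CKO 1 to 3. CKO 2 was the lowest of the libraries labelled CKO in 59 of 81 members (72.8%), against 37.9% of all genes tested. CKO 1 exceeded the highest WT value in 49 members, CKO 3 in 48 and CKO 2 in 29. These are 60.5, 59.3 and 35.8% of the members tested, against 31.6, 32.4 and 33.2% of all genes. CKO 2 fell short of the lowest WT value in 28 members, CKO 1 in 12 and CKO 3 in 14. Here the shares were 34.6, 14.8 and 17.3%, against 31.8, 30.5 and 29.1% of all genes, so CKO 2 was near the share of all genes.

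**Figure D1:**
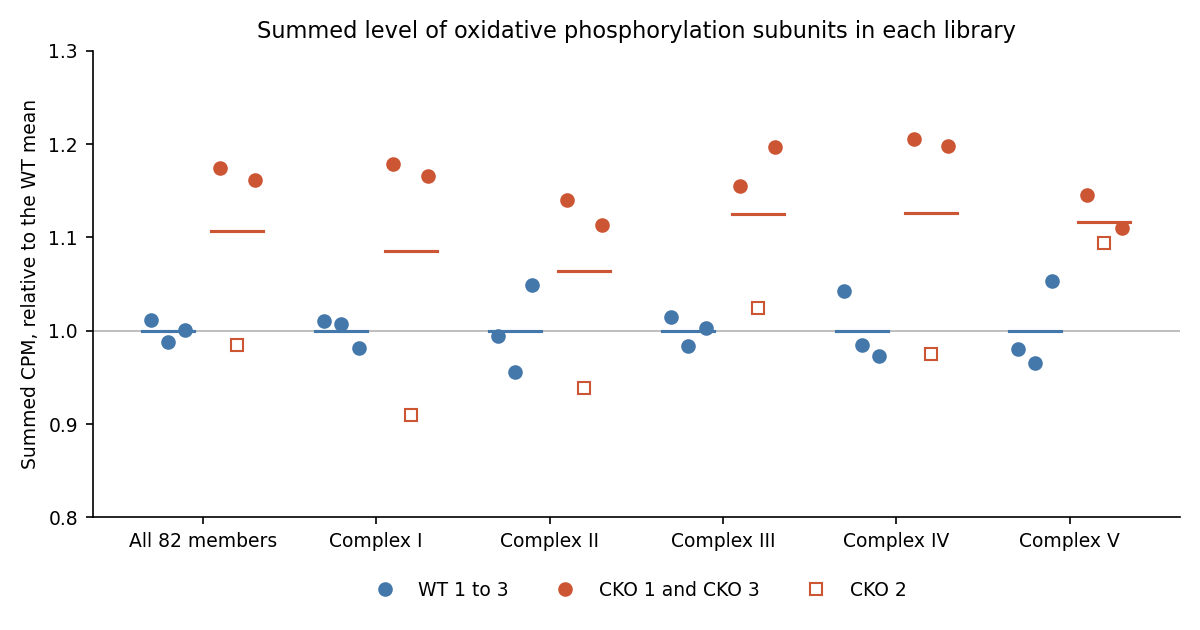
Summed CPM of all 82 members and of each complex in each library, divided by the mean of the 3 libraries labelled WT (vertical axis, starting at 0.8, lines show group means). CKO 1 and CKO 3 (filled) lie above 1.1 in each complex, whereas CKO 2 (open squares) lies below 1 in complexes I, II and IV and near the others only in complex V.

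The count of called members changed with the libraries used. Without CKO 2, limma called 13 members higher and 4 lower, against 5.74% and 5.03% of the 12055 genes tested then. This leaves CKO 1 and CKO 3 alone in their group, a pair little further apart than counting noise, so the spread within it, and each adjusted p given without CKO 2, may be too small. With all libraries and this pair averaged into 1, limma called 0 members and 2.13% of all genes. Ndufa4 and Cox7a2l were among these 17. The others on the higher side were Cox6b2, Uqcr11, Cox6b1, Atp5j2, Cox6c, Atp5l, Ndufb7, Ndufb3, Uqcrb, Ndufa11, Cox7a2 and Atp5e, and on the lower side Cox6a2, Uqcrfs1 and Ndufa12. Without WT 1, WT 2, CKO 1 or CKO 3, limma called 0 members, but also only 1.79, 1.75, 2.12 and 1.90% of all genes, in that order, and 2 to 3 members met the fold criterion in each case. Without WT 3 it called 3 members and 4.48% of all genes.

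Promoters were taken from RefSeq (GRCm38.p6), 250 bases before to 50 bases after the start of each gene, and 65 of the 82 members matched by symbol. On both strands they were searched for the motifs of regulators known for mitochondrial genes and low oxygen. The NRF1 motif GCGCANGCG was present in 20 of the 65 (30.8%), against 7.03% of all 27025 genes with a promoter and 15.8% of the genes tested. The GABPA motif CCGGAAG was present in 16 (24.6%, against 9.93% and 20.9%) and the YY1 motif AAGATGGC in 9 (13.8%, against 3.19% and 5.42%). The ESRRA motif CAAGGTCA was present in 4 (6.15%, against 1.76% and 1.19%) and the HIF1 core ACGTG in 16 (24.6%, against 21.8% and 29.7%). By complex, NRF1 matched in 8 of 32 promoters of complex I, 2 of 3 of complex II, 2 of 5 of complex III, 1 of 12 of complex IV and 7 of 13 of complex V. None of these motifs lies within another. Such a match describes the letters and is no evidence of binding.

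The windows printed here are those of both called members, which hold none of the motifs, and of Sdhd and Uqcr11, the members with the highest log2 fold change of complexes II and III among those with a mean of at least 20 CPM, each with 3 of the 5 motifs. All 4 genes lie on the minus strand and the sequences read 5′ to 3′ along the gene, Ndufa4 at chr6:11907401-11907700, Cox7a2l at chr17:83514284-83514583, Sdhd at chr9:50603800-50604099 and Uqcr11 at chr10:80406772-80407071. Capitals mark the motifs on either strand, in Sdhd NRF1, GABPA and ESRRA and in Uqcr11 HIF1, GABPA and NRF1. The RefSeq starts of Ndufa4, Cox7a2l and Uqcr11 lie inside the genes as annotated by GENCODE, that of Cox7a2l farthest inside.
Ndufa4: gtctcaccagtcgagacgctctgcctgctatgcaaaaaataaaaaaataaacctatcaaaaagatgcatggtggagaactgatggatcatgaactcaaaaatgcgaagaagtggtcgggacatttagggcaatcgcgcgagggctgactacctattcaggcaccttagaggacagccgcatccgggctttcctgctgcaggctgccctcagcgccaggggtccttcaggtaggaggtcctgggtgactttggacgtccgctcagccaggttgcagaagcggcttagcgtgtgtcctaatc
Cox7a2l: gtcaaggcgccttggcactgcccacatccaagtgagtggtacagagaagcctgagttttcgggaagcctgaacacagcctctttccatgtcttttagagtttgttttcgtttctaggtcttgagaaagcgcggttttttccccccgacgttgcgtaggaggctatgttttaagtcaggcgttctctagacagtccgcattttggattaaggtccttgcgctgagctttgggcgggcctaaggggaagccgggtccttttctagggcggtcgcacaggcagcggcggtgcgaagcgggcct
Sdhd: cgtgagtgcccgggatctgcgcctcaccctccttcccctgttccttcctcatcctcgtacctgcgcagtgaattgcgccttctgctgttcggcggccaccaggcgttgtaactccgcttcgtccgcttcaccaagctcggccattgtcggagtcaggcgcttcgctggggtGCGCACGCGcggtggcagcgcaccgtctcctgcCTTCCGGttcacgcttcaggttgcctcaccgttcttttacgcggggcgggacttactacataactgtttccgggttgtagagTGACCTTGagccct
Uqcr11: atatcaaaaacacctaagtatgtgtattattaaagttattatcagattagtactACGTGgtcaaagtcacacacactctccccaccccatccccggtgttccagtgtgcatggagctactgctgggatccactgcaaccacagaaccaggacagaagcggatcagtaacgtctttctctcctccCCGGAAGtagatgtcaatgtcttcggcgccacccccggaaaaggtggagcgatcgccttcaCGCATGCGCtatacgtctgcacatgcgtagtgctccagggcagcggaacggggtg

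Complex I is the largest of the complexes, with a hydrophilic arm that oxidises NADH and a membrane arm that pumps protons. Its 36 subunits had a median log2 fold change of 0.084, with 8 of them apart on the higher side (22.2%, against 14.5% of all genes) and 2 on the lower side (5.56%, against 13.2%). The sum was 13611, 13568 and 13218 CPM in WT 1 to 3 against 15878, 12256 and 15699 CPM in CKO 1 to 3. CKO 2 was the lowest library of all and CKO 1 and CKO 3 were the highest. CKO 2 was below the lowest WT value in 18 of the 36 subunits and above the highest in 9. For CKO 1 the corresponding counts were 5 and 23, and for CKO 3 they were 5 and 24. Of all genes, 31.8% lay below and 33.2% above in CKO 2, 30.5 and 31.6% in CKO 1, and 29.1 and 32.4% in CKO 3. The median of complex I was 0.24 without CKO 2 and 0.022 without CKO 3.

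The 7 nuclear core subunits of complex I carry flavin and the iron-sulfur clusters along which electrons travel. Their median log2 fold change was 0.046, and the genotypes overlapped in each of the 7. Ndufv1, which binds NADH and flavin, had 218, 229 and 215 CPM in WT 1 to 3 against 232, 213 and 240.1 CPM in CKO 1 to 3, one of the narrowest spreads among the members (log2 fold change 0.046, chosen after its values were seen). Ndufs1 and Ndufv2, which hold iron-sulfur clusters of the same arm, were near the floor. Ndufs1 had 8, 15 and 12 reads in WT 1 to 3 against 4, 10 and 8 reads in CKO 1 to 3, and Ndufv2 had 6, 5 and 5 and 3, 10 and 2. No difference was detectable for them at this depth. The 29 accessory subunits, which surround and stabilise the core, had a median of 0.18, and they include all 8 subunits of complex I apart on the higher side and both on the lower.

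Ndufa4 (ENSMUSG00000029632, chr6:11900292-11907497, minus strand) is named for complex I, where it was first assigned, but its protein purifies with complex IV. It stood at 1007, 1028 and 1216 CPM in WT 1 to 3 against 1746, 1578 and 1777 CPM in CKO 1 to 3. Each library labelled CKO, CKO 2 included, was above each labelled WT. Its mean rose from 1084 ± 115 to 1700.2 ± 107 CPM (SD, n = 3). The log2 fold change was 0.65 with a standard error of 0.14, and limma gave an adjusted p of 0.0262, higher in 3 of 3 libraries. Over 14 alternative settings the log2 fold change ran from 0.58 to 0.74 and the adjusted p from 0.00579 to 0.370, and 7 of the settings were past the threshold. The call was lost without WT 1 (adjusted p = 0.128), WT 2 (0.123), CKO 1 (0.117) or CKO 3 (0.125), with limma in each case. No near-identical copy of Ndufa4 was found. Its paralog Ndufa4l2, a target of Hif-1 under low oxygen that lies outside the symbol rule, had 442, 434 and 162 CPM in WT 1 to 3 against 355, 497 and 334 CPM in CKO 1 to 3. WT 3 was far below the other 5 libraries, and without it the log2 fold change turned from 0.31 to -0.17.

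At the other end of complex I was Ndufa12, an accessory subunit of the hydrophilic arm, with 355, 344 and 298 CPM in WT 1 to 3 against 231, 283 and 204 CPM in CKO 1 to 3. All libraries labelled CKO were below all labelled WT, by -0.48 on the log2 scale, but limma's adjusted p was 0.130. Without CKO 2 it was 0.0210, and over all alternatives it ran from 0.0210 to 0.576. Ndufa12 shares its sequence with 1 near-identical pseudogene. Ndufa13, a membrane arm subunit, was the other member apart on the lower side, with 1246, 1270.5 and 1143 CPM in WT 1 to 3 against 1071, 701 and 1049 CPM in CKO 1 to 3 (log2 fold change -0.40, limma's adjusted p = 0.233, chosen after its values were seen). CKO 2 was the lowest of its libraries. Ndufb7, at the far end of the membrane arm, was apart on the higher side (log2 fold change 0.51, limma's adjusted p = 0.0829, likewise chosen afterwards), from 217, 247 and 246 CPM in WT 1 to 3 to 364, 296 and 356 CPM in CKO 1 to 3. It has 1 near-identical pseudogene, and without CKO 2 limma's adjusted p was 0.0166.

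Ndufc1, a small accessory subunit of the membrane arm, was measured by the study with qPCR as a gene of oxidative phosphorylation, together with the complex I assembly factors Ndufaf2 and Ndufaf4. Ndufc1 had 348, 327 and 318 CPM in WT 1 to 3 against 318, 272 and 322 CPM in CKO 1 to 3. The genotypes overlapped and CKO 2 was the lowest library. The log2 fold change was -0.12 with a standard error of 0.15 (limma's adjusted p = 0.679), and over 14 alternatives it ran from -0.17 to -0.045, nearest to 0 without CKO 2. Ndufaf2 had 64.5, 57.8 and 43.1 CPM in WT 1 to 3 against 56.4, 72.9 and 68.5 CPM in CKO 1 to 3. Ndufaf4 had 39.9, 48.0 and 47.3 CPM in WT 1 to 3 against 49.5, 78.7 and 37.3 CPM in CKO 1 to 3. Both overlapped between genotypes, with log2 fold changes of 0.27 and 0.22 and limma's adjusted p of 0.524 and 0.686. Without CKO 2, the highest library for Ndufaf4, that gene's log2 fold change was -0.063, and without CKO 3 it was 0.47. That of Ndufaf2 was 0.10 without WT 3. Of the exonic bases of Ndufaf2, 65.6% also belong to exons of a gene on the opposite strand, so its value depends on whether reads were counted by strand.

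**Figure D2:**
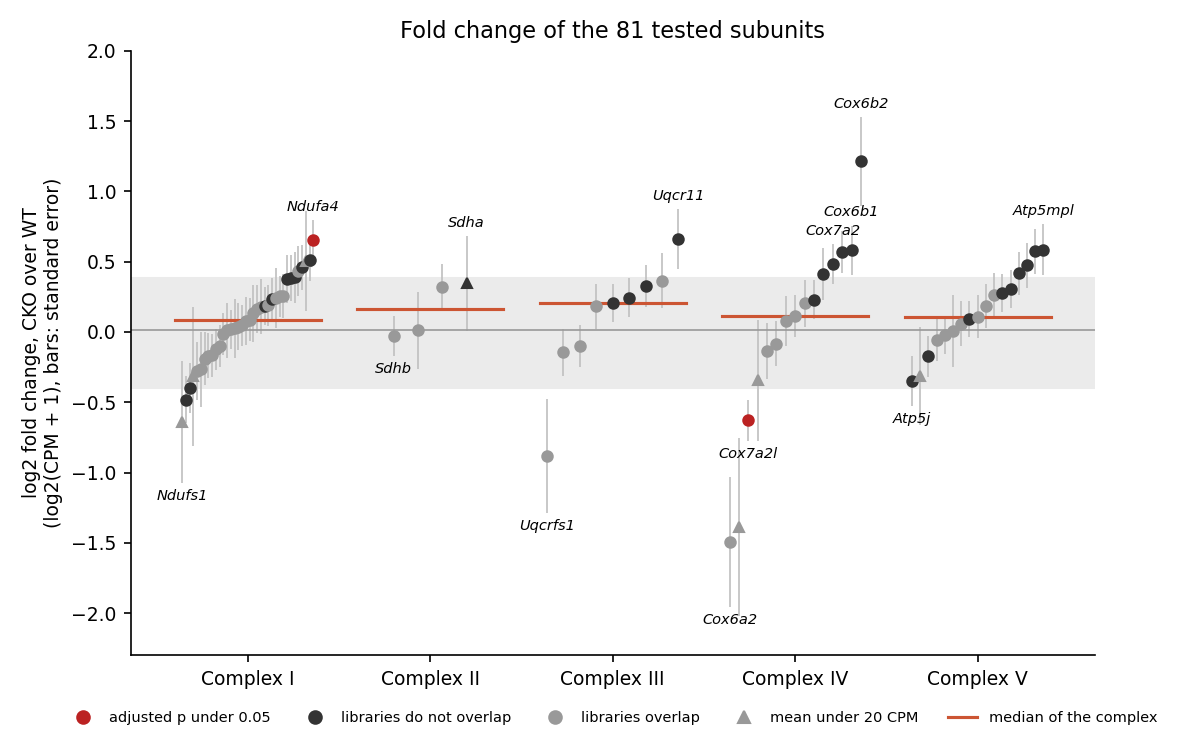
Log2 fold change (CKO over WT, on log2(CPM + 1)) of each of the 81 tested subunits, in order of size within each complex, with standard errors, and the median of each complex as a line; the grey band spans the middle 50% of all genes tested, from -0.40 to 0.39. Ndufa4 and Cox7a2l (red) are past the adjusted threshold, and most subunits lie within the band.

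Complex II, succinate dehydrogenase, also belongs to the tricarboxylic acid cycle and has no subunit encoded in mitochondrial DNA. Its median log2 fold change over 4 subunits was 0.17, which turned to -0.017 with edgeR's quasi-likelihood test on the 3 subunits that passed its filter. The limma median over 4 subunits was 0.31 without CKO 2 and 0.095 without CKO 1. Sdhd, a membrane anchor, had the highest fold change among those with a mean of at least 20 CPM, with 229.8, 235 and 298 CPM in WT 1 to 3 against 352, 281 and 315 CPM in CKO 1 to 3. Its genotypes overlapped, since WT 3 exceeded CKO 2 (log2 fold change 0.32, limma's adjusted p = 0.304). Sdhb, the iron-sulfur subunit, had the lowest, with 515, 464 and 537 CPM in WT 1 to 3 against 508, 460.5 and 517 CPM in CKO 1 to 3. Its log2 fold change of -0.029 turned to 0.016 without WT 3 and to 0.022 without CKO 2. Sdha, the flavoprotein that oxidises succinate, had only 9, 8 and 6 reads in WT 1 to 3 against 12, 11 and 8 reads in CKO 1 to 3. Per kb of exon, Sdha stood at 1.64 CPM, Sdhc at 34.8, Sdhb at 223 and Sdhd at 232, although the proteins occur in equal number in the complex. Sdha was the only subunit of complex II whose libraries were apart in CPM, on the higher side (25%, against 14.5% of all genes). That separation rests on 6.93 CPM in CKO 3 against 6.52 CPM in WT 1, or 8 reads against 9. On the lower side 0 were apart (against 13.2%). No near-identical copy of Sdha was found.

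Complex III had a median log2 fold change of 0.21 over 9 subunits, with 4 apart on the higher side (44.4%, against 14.5% of all genes) and 0 on the lower (against 13.2%). Limma called 0 of the 9, against 5.78% of all genes, and 1 had an unadjusted p under 0.05 with a higher value (11.1%, against 11.2% of all genes). The core proteins Uqcrc1 and Uqcrc2 together gave 419.7, 416 and 479 CPM in WT 1 to 3 against 541, 528 and 509 CPM in CKO 1 to 3, apart between genotypes. The 5 small subunits had a median of 0.24, with 3 apart on the higher side. The catalytic subunits, Uqcrfs1 and cytochrome c1 (Cyc1), both had negative values, -0.88 and -0.14, and both overlapped between genotypes.

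Uqcrfs1, the Rieske iron-sulfur protein, had 238, 189.9 and 253 CPM in WT 1 to 3 against 56.4, 235 and 136 CPM in CKO 1 to 3. CKO 1 and CKO 3 were low, and CKO 2 lay within the WT range. Even CKO 1 and CKO 3, the most alike pair of libraries, differed widely here. Limma's adjusted p was 0.242 with all libraries and 0.0177 without CKO 2, where the log2 fold change moved from -0.88 to -1.35. Without CKO 1 it was -0.33. The adjusted p ran from 0.0177 to 0.570 over all alternatives. Uqcr11, a small membrane subunit, was the counterpart on the higher side, with 156, 173 and 179.9 CPM in WT 1 to 3 against 319.8, 191 and 319 CPM in CKO 1 to 3. The libraries labelled CKO were all higher, CKO 2 by a narrow margin. The log2 fold change was 0.66 with a standard error of 0.21, and limma's adjusted p was 0.0995 with all libraries and 0.00264 without CKO 2 (range over alternatives 0.00264 to 0.526). Uqcr10, another small subunit and the one with the highest level per kb in complex III (806 CPM per kb), differed less, from 411, 456 and 425 CPM in WT 1 to 3 to 512, 474 and 546 CPM in CKO 1 to 3.

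Complex IV, cytochrome c oxidase, is built from catalytic subunits of mitochondrial DNA and nuclear subunits that surround them, and several of the nuclear ones exist as isoforms of different tissues. Of its 16 nuclear members 15 were tested, with a median log2 fold change of 0.12, 6 apart on the higher side and 1 on the lower, where all genes gave 14.5% and 13.2%. The sum was 9915, 9366 and 9257 CPM in WT 1 to 3 against 11471, 9276 and 11391 CPM in CKO 1 to 3. CKO 1 and CKO 3 were the highest, and CKO 2 was within the WT range. The median was 0.22 without CKO 2 and 0.027 without WT 3. When Ndufa4 was counted here, it was 0.16.

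Cox7a2l (ENSMUSG00000024248, chr17:83501918-83517330, minus strand) encodes a protein related to the Cox7a isoforms that links complex III with complex IV in supercomplexes. It had 500.1, 533 and 439 CPM in WT 1 to 3 against 334, 294 and 322 CPM in CKO 1 to 3. All libraries labelled CKO were lower than all labelled WT, and here CKO 2 was the lowest. The mean fell from 491 ± 47.5 to 317 ± 20.7 CPM (SD, n = 3), with a log2 fold change of -0.63 and a standard error of 0.15. Limma's adjusted p was 0.0346, lower in 3 of 3 libraries labelled CKO, and it ran from 0.0165 to 0.346 over 14 alternatives, past the threshold in 7. The call was lost without WT 1 (adjusted p = 0.136), WT 2 (0.152), CKO 1 (0.104) or CKO 3 (0.125), again with limma. A pseudogene 98.0% identical over 342 bases could share its reads. Cox7a2, the isoform found in most tissues, went the other way, with 947, 982 and 1111 CPM in WT 1 to 3 against 1473, 1272 and 1501 CPM in CKO 1 to 3. Its libraries were apart as well, with a log2 fold change of 0.48 and a limma adjusted p of 0.0796, or 0.0155 without CKO 2 (range over alternatives 0.0155 to 0.522).

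Set against each other per kb of exon, Cox7a2l made up 25.04, 25.7 and 20.01% of the Cox7a family in WT 1 to 3 against 12.6, 12.8 and 12.03% in CKO 1 to 3. This share was nearly equal in all libraries labelled CKO, CKO 2 included, and the genotypes were far apart. A share within a library does not depend on how the library was scaled. Cox7a2 made up 74.3, 74.2 and 79.2% in WT and 87.3, 87.0 and 88.0% in CKO. Cox7a1, the isoform of heart and skeletal muscle, made up the remainder, with 7, 1 and 7 reads in WT 1 to 3 against 1, 2 and 0 reads in CKO 1 to 3.

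**Figure D3:**
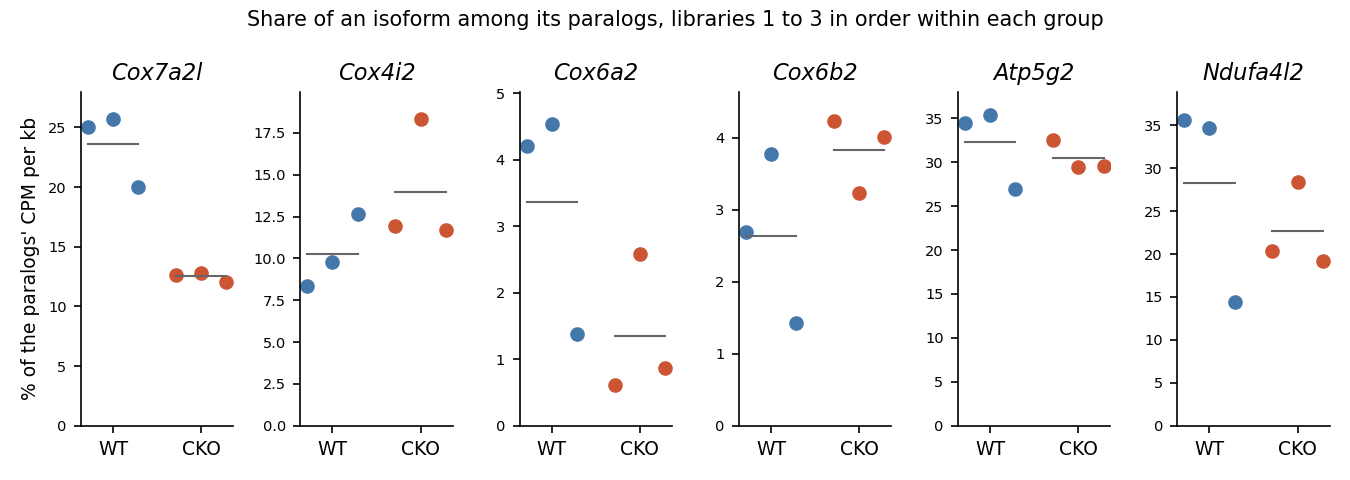
Share of 6 isoforms in the summed CPM per kb of exon of their paralogs, in percent, for the libraries of each genotype (points, in the order 1 to 3) with the mean as a line. The share of Cox7a2l lies between 20.01 and 25.7% in WT and between 12.03 and 12.8% in CKO, and no other isoform shown is this far apart.

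Cox6b1 and Cox6b2 encode isoforms of the subunit on the intermembrane side where cytochrome c docks, Cox6b2 being the one known from testis. Cox6b2 had 34.1, 49.5 and 22.8 CPM in WT 1 to 3 against 99.7, 54.1 and 93.6 CPM in CKO 1 to 3. All libraries labelled CKO were higher, CKO 2 only slightly so. The fold criterion was met, with a log2 fold change of 1.21 and a standard error of 0.32, and limma's adjusted p of 0.0509 missed the threshold. Without WT 3 the log2 fold change was 0.94, short of the fold criterion. Without CKO 2 the adjusted p was 0.00865, and over all alternatives it ran from 0.00865 to 0.302. Cox6b1 had 789, 805 and 1004 CPM in WT 1 to 3 against 1441, 1036 and 1432 CPM in CKO 1 to 3. Its libraries were apart too, with a log2 fold change of 0.58 and a limma adjusted p of 0.0832, or 0.00692 without CKO 2 (range 0.00692 to 0.533). Cox6b2 gave 2.69, 3.78 and 1.43% of the pair per kb in WT 1 to 3 against 4.24, 3.23 and 4.01% in CKO 1 to 3, which overlap. Cox6c, a membrane subunit without isoforms chosen here after its values were seen, had 518, 581 and 554 CPM in WT 1 to 3 against 879, 699 and 892 CPM in CKO 1 to 3 (log2 fold change 0.57, limma's adjusted p = 0.0525, or 0.00525 without CKO 2).

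The isoforms of heart and skeletal muscle were rare. Cox6a2 had 46.4, 37.5 and 15.2 CPM in WT 1 to 3 against 6.19, 18.0 and 8.67 CPM in CKO 1 to 3. WT 1 and WT 2 were high, but WT 3 lay below CKO 2, so the genotypes overlapped. With a log2 fold change of -1.49, a standard error of 0.46 and an unadjusted p of 0.00866, it met the fold criterion, and limma's adjusted p was 0.0898. The adjusted p was 0.0325 without WT 3 and 0.0197 without CKO 2, with a range from 0.0197 to 0.501 over all alternatives. Cox8b was not tested, with 2 reads in WT 1, 1 in WT 3 and 0 elsewhere, which is at or under the floor in every library. Of 15 skeletal muscle markers 10 were tested and limma called 0, against 5.78% of all genes. An unadjusted p under 0.05 was reached by 1 of them with a higher value, against 11.2% of all genes. The muscle markers summed to 100.02, 66.0 and 275 CPM in WT 1 to 3 against 131, 128 and 133 CPM in CKO 1 to 3. They were highest in WT 3, the WT library with the least Cox6a2. Mylpf was their most abundant gene, with a mean of 44.1 CPM in WT and 33.9 CPM in CKO, and none was at 0 in all libraries.

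Cox6a1, the Cox6a isoform of most tissues, had 1092, 815 and 1128 CPM in WT 1 to 3 against 1048, 703 and 1029 CPM in CKO 1 to 3, with overlap and a log2 fold change of -0.14 that was 0.052 without CKO 2. Cox4i1, the usual form of the largest nuclear subunit, had 1765, 1706 and 1480.0 CPM in WT 1 to 3 against 1689.7, 1285 and 1722 CPM in CKO 1 to 3, and its log2 fold change of -0.084 was 0.052 without CKO 2. Its counterpart Cox4i2, known from lung and from cells at low oxygen, had 81.9, 93.8 and 109 CPM in WT 1 to 3 against 116, 147 and 116 CPM in CKO 1 to 3. The libraries of Cox4i2 did not overlap and CKO 2 was the highest (log2 fold change 0.41, limma's adjusted p = 0.235). As a share of the pair per kb, Cox4i2 made up 8.36, 9.76 and 12.7% in WT 1 to 3 against 11.9, 18.3 and 11.7% in CKO 1 to 3, so the shares overlapped.

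**Figure D4:**
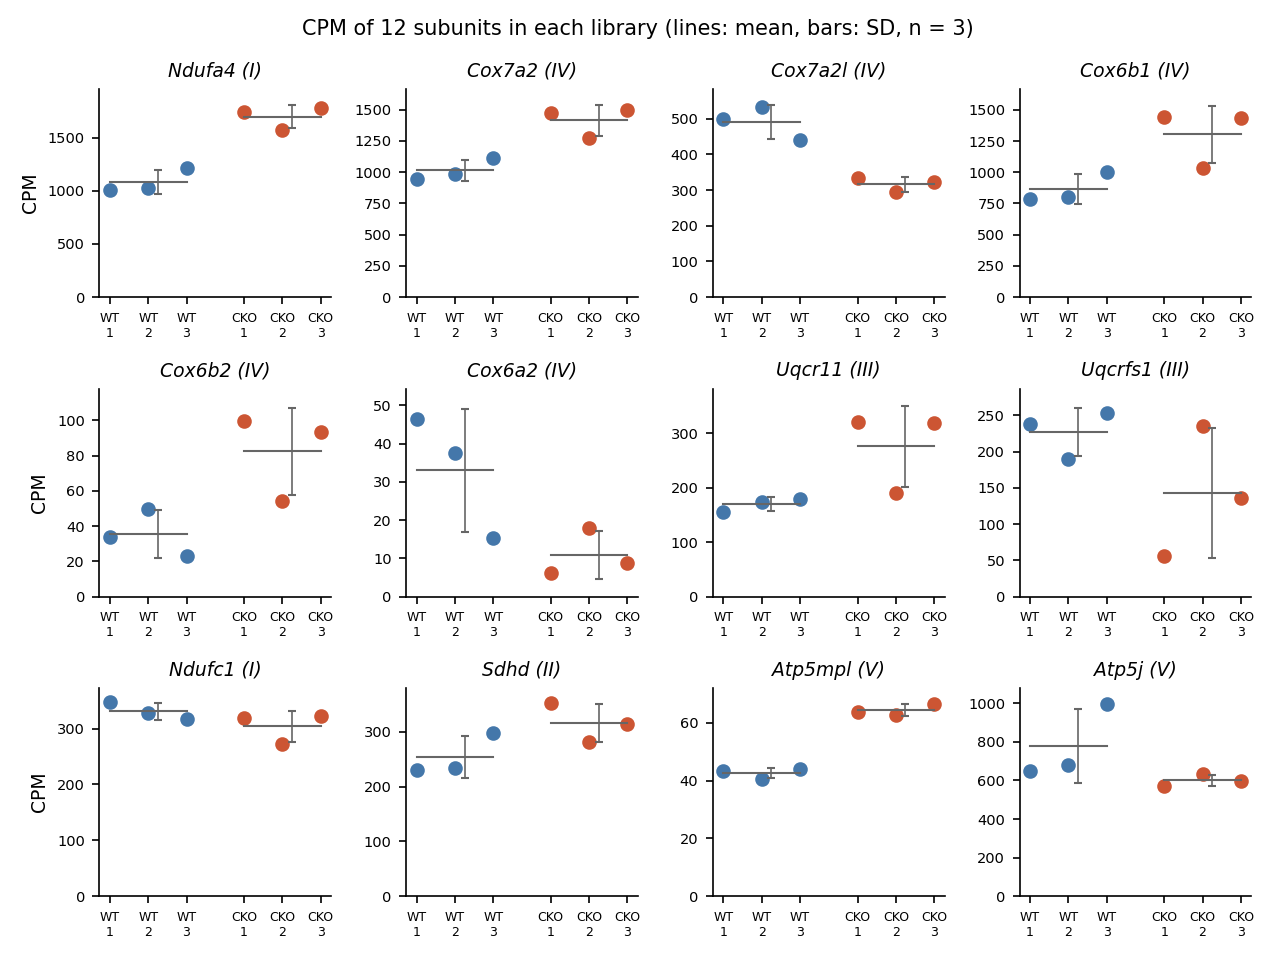
CPM of 12 subunits in each library (points), with the mean and SD of 3 libraries per genotype; the complex is given in brackets and each vertical axis starts at 0. Ndufa4, Cox7a2, Cox7a2l and Atp5mpl keep the genotypes apart by a margin with CKO 2 included, whereas CKO 2 lies near or within the WT range for Cox6b2, Uqcr11 and Uqcrfs1.

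Complex V had a median log2 fold change of 0.11 over 17 members, with 7 apart on the higher side (41.2%, against 14.5% of all genes) and 2 on the lower (11.8%, against 13.2%). The median was 0.059 without CKO 1 and 0.065 with TMM factors. Its sum was 9082, 8942 and 9753 CPM in WT 1 to 3 against 10606, 10132 and 10279 CPM in CKO 1 to 3. All libraries labelled CKO were higher than all labelled WT, CKO 2 included, which held for none of the other complexes apart from complex III. Limma called 0 of the 17, against 5.78% of all genes. An unadjusted p under 0.05 was reached by 5 with higher values (29.4%, against 11.2% of all genes) and 0 with lower ones (against 10.1%). The 5 genes of the F1 head and central stalk, where ATP is made, had a median of -0.022. The 4 genes of the peripheral stalk, which holds the head still, had 0.075. The 3 genes of the rotating c ring had 0.28, and the 4 small membrane subunits tested here, Atp5j2, Atp5k, Atp5l and Atp5mpl, had 0.52. Atp5s was placed in none of these groups and had a log2 fold change of 0.0040.

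Those 4 small subunits sit in the membrane beside the ring, and some of them hold ATP synthases together in pairs. They summed to 1403, 1423 and 1401 CPM in WT 1 to 3 against 2185, 1654 and 2175 CPM in CKO 1 to 3. The libraries labelled WT were nearly equal, and each library labelled CKO was higher, CKO 2 by the least. Their means were 1409 ± 12.05 and 2005 ± 304 CPM (SD, n = 3), a ratio of 1.42, the largest among the groups of subunits formed here. The sum is carried mostly by Atp5l, with 1049.5, 1054 and 991 CPM in WT 1 to 3 against 1561, 1169 and 1608 CPM in CKO 1 to 3. Atp5l also has 14 near-identical copies, 13 of them pseudogenes, and its value is uncertain (limma's adjusted p = 0.112, or 0.00643 without CKO 2). Atp5mpl, which has none, had 43.5, 40.5 and 43.9 CPM in WT 1 to 3 against 64.0, 62.8 and 66.7 CPM in CKO 1 to 3. Both genotypes were tight and far apart, with a log2 fold change of 0.59 and a standard error of 0.18, but limma's adjusted p was 0.0901 and ran from 0.0620 to 0.441 over the alternatives, past the threshold in 0 of 14. Atp5j2, also without a copy, had 297, 319.7 and 358 CPM in WT 1 to 3 against 554, 413 and 492 CPM in CKO 1 to 3 (log2 fold change 0.57, limma's adjusted p = 0.0661, chosen after its values were seen, or 0.0104 without CKO 2). Atp5k was near the floor, with 17, 11 and 10 reads in WT 1 to 3 against 8, 12 and 10 reads in CKO 1 to 3.

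The c ring is encoded by Atp5g1, Atp5g2 and Atp5g3, whose mature proteins are the same. Together they gave 1746, 1785 and 1864 CPM in WT 1 to 3 against 2138, 2261 and 2092 CPM in CKO 1 to 3. The sums were apart, and CKO 2 was the highest. Atp5g3, the only one of them without a near-identical copy, had 668, 696 and 759 CPM in WT 1 to 3 against 849, 942 and 834 CPM in CKO 1 to 3 (log2 fold change 0.31, unadjusted p = 0.0490, limma's adjusted p = 0.233). Atp5g1 had a log2 fold change of 0.28 and Atp5g2 of 0.19, or 0.062 without WT 3. Per kb, Atp5g3 made up 45.0, 45.2 and 49.97% of the ring genes in WT 1 to 3 against 46.9, 49.7 and 48.2% in CKO 1 to 3, an overlapping share.

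The peripheral stalk held the lowest fold change of complex V. Atp5j, coupling factor 6, had 651, 683 and 998 CPM in WT 1 to 3 against 570.1, 632 and 599 CPM in CKO 1 to 3. The genotypes were apart, yet WT 3 was far above the rest, and the log2 fold change of -0.35 was -0.15 without WT 3 (limma's adjusted p = 0.299 with all libraries, range 0.183 to 0.577). Of its exonic bases 12.7% overlap exons on the opposite strand, those of Gabpa, which encodes a regulator of mitochondrial genes. Atp5h, subunit d of the same stalk and the complex V gene with the highest level per kb (409 CPM per kb), had 494, 578 and 698 CPM in WT 1 to 3 against 629, 570.2 and 626 CPM in CKO 1 to 3. Its log2 fold change of 0.057 was -0.063 without WT 1, and 5 pseudogenes are near-identical to it. In the F1 head, the catalytic subunit Atp5b had 1094, 1024 and 1184 CPM in WT 1 to 3 against 1227, 1601 and 1164 CPM in CKO 1 to 3, CKO 2 being the highest and CKO 3 falling within the WT range (chosen after its values were seen).

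Levels were compared between genes per kb of exon, as means over all 6 libraries. The median was 207 CPM per kb in complex I, 129 in complex II, 348 in complex III, 379 in complex IV and 211 in complex V. Cox8a, a small membrane subunit of complex IV, was the highest at 2703 CPM per kb, followed by Ndufa2, an accessory subunit of complex I, at 1565 and Cox6b1 at 1532. Cox8a had 1877, 1543 and 1413 CPM in WT 1 to 3 against 1830.0, 1643 and 1733 CPM in CKO 1 to 3, and Ndufa2 had 790.0, 837 and 816 and 1034, 826 and 1069 CPM. Both overlapped between genotypes, with log2 fold changes of 0.12 and 0.25. That of Cox8a was 0.23 without WT 1 and 0.027 without WT 3. At the low end 8 members had a mean under 20 CPM, namely Atp5k, Ndufb6, Cox7a1, Cox5a, Ndufv2, Sdha, Cox8b and Ndufs1. Of these, Cox7a1 and Cox8b are isoforms of heart and skeletal muscle, and the cause of the low values of the other 6 was not tested.

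**Figure D5:**
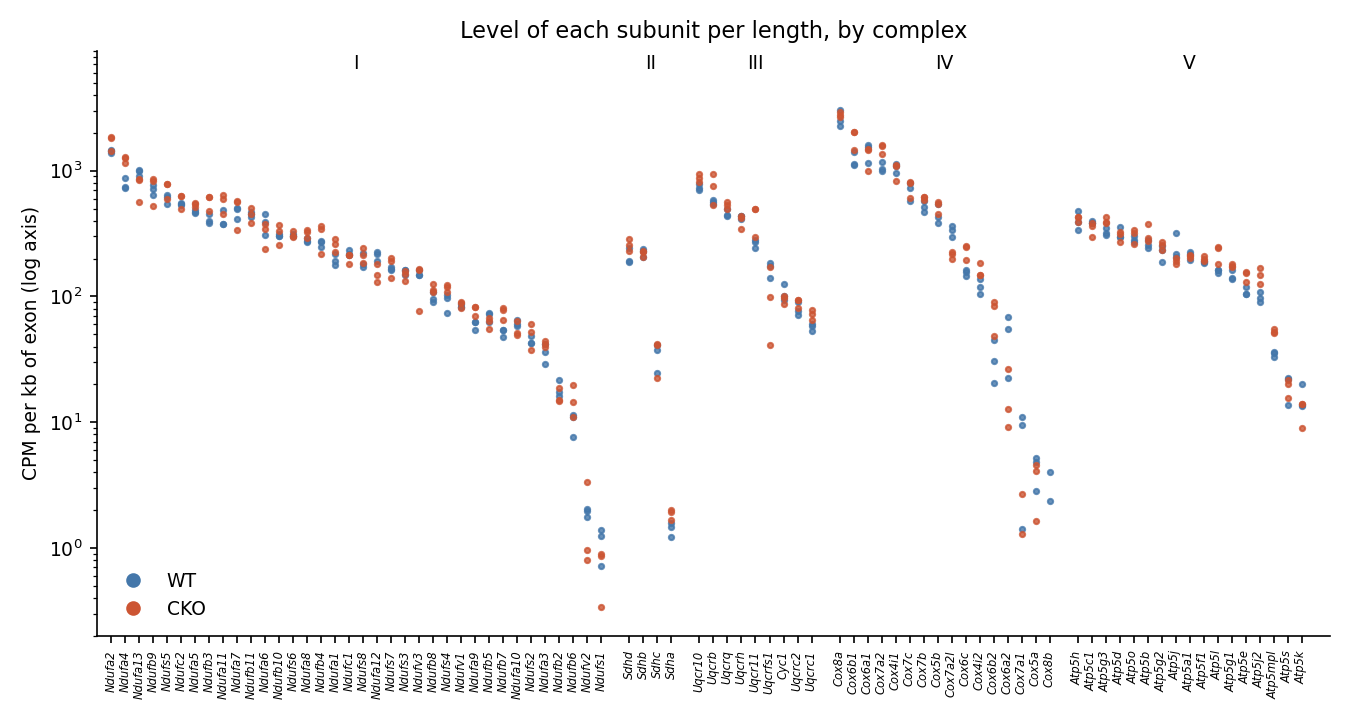
CPM per kb of exon of each of the 82 subunits in each library (log axis, on which the 0 values of Cox8b and of Cox7a1 in CKO 3 cannot be drawn), in order of the mean within each complex. Most subunits lie between 10 and 2000 CPM per kb, and Ndufv2, Ndufs1, Sdha, Cox7a1, Cox5a and Cox8b have the lowest means.

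Near-identical copies could share reads with the members. With 90% identity across 300 bases as the minimum, 26 of the 82 members had at least 1 copy, 52 copies in all, 49 of them pseudogenes. For the 55 tested members with no such copy, the median log2 fold change was 0.16, with Ndufa4 called, and 21 were apart on the higher side and 2 on the lower, where all genes gave 14.5% and 13.2%. Exons of 25 members overlap exons of a gene on the opposite strand, over more than 10% of their bases in 10 members.

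The subunits encoded in mitochondrial DNA, 13 in all and 12 tested, had a median log2 fold change of -0.041, with 1 called higher and 1 lower, against 3.18% and 2.60% of all genes. Their sum was 2019, 2191 and 2191 CPM in WT 1 to 3 against 2995, 1675 and 3110.4 CPM in CKO 1 to 3. As for the nuclear members, CKO 1 and CKO 3 were high and CKO 2 was low. The nuclear sum was 18.3, 16.4 and 16.7 times the mitochondrial sum in WT 1 to 3 against 14.3, 21.5 and 13.6 times in CKO 1 to 3, so that CKO 1 and CKO 3 lay below all libraries labelled WT and CKO 2 lay above them. Near-identical pseudogenes could take reads from some of these genes, such as mt-Co1, mt-Atp6 and mt-Nd4, so the mitochondrial sums and these ratios are uncertain. mt-Nd1, a membrane subunit of complex I, rose from 348, 361 and 531 CPM in WT 1 to 3 to 845, 591 and 875 CPM in CKO 1 to 3 (log2 fold change 0.90, limma's adjusted p = 0.0344, higher in 3 of 3). mt-Co3, a subunit of complex IV, fell from 69.6, 63.0 and 41.4 CPM in WT 1 to 3 to 30.3, 10.8 and 26.0 CPM in CKO 1 to 3 (log2 fold change -1.42, limma's adjusted p = 0.0490, lower in 3 of 3), and CKO 2 was the lowest. A pseudogene identical to mt-Co3 over 783 bases could share its reads, whereas no near-identical copy of mt-Nd1 was found. The adjusted p ran from 0.00402 to 0.391 for mt-Nd1 over the alternatives, and the call was lost without WT 1 (0.149), WT 2 (0.147), CKO 1 (0.130) or CKO 3 (0.144). For mt-Co3 it ran from 0.0121 to 0.269, and the call was lost on leaving out WT 1 (0.186), WT 2 (0.177), WT 3 (0.0506), CKO 1 (0.0570) or CKO 3 (0.0996).

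Assembly factors insert cofactors and join subunits, and their counts are set against the 5.78% of all genes that limma called and the 11.2% with higher and 10.1% with lower values at an unadjusted p under 0.05. Of 16 factors of complex I, 15 were tested, 0 were called by limma, 1 had an unadjusted p under 0.05 and the median log2 fold change was 0.0021. Of 33 factors of complexes II to V, 32 were tested, 0 were called, 6 had an unadjusted p under 0.05 with higher and 2 with lower values, and the median was 0.17. Among 9 genes of oxidative phosphorylation outside the symbol rule, 7 were tested, 1 rose, and the median was 0.36. The gene that rose was Cycs, cytochrome c itself, with 376, 381 and 383 CPM in WT 1 to 3 against 581, 704 and 595 CPM in CKO 1 to 3. Its libraries were apart and CKO 2 was the highest (log2 fold change 0.71, limma's adjusted p = 0.0186, higher in 3 of 3). Cycs has 11 near-identical copies, its adjusted p ran from 0.00669 to 0.263 over the alternatives, and the call was lost without WT 1 (0.0887), WT 2 (0.0863), CKO 1 (0.0641) or CKO 3 (0.0750).

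Other mitochondrial genes were counted the same way, against 3.18% of all genes that rose, 2.60% that fell and a median of 0.013. Of 19 genes of the tricarboxylic acid cycle and pyruvate dehydrogenase, all tested, 1 fell and 0 rose, with a median of 0.15. Idh2, the mitochondrial isocitrate dehydrogenase that uses NADP, had 151, 125 and 109.8 CPM in WT 1 to 3 against 81.2, 57.7 and 66.7 CPM in CKO 1 to 3 (log2 fold change -0.90, limma's adjusted p = 0.0277, lower in 3 of 3, range 0.0114 to 0.263). Its call was lost without WT 1 (0.133), WT 2 (0.109), CKO 1 (0.0526) or CKO 3 (0.109). Of 17 regulators of mitochondrial biogenesis, 16 were tested and 1 rose, Gabpb1, the partner of Gabpa, with 29.0, 17.3 and 22.0 CPM in WT 1 to 3 against 46.1, 41.9 and 44.2 CPM in CKO 1 to 3 (log2 fold change 0.95, limma's adjusted p = 0.0483, higher in 3 of 3). Its adjusted p was over 0.05 in all but 2 of 14 alternatives, the exceptions including that without CKO 2, and ran from 0.0359 to 0.285; it was 0.0694, 0.174 and 0.0887 without WT 1, 2 and 3 and 0.158 and 0.154 without CKO 1 and CKO 3. The median of the regulators was -0.021.

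Of 25 genes of mitochondrial transport and import, all tested, 2 rose and 0 fell, against 3.18% and 2.60% of all genes, with a median of 0.25. Timm17a, part of the inner membrane import channel, had 243, 234 and 215 CPM in WT 1 to 3 against 391, 399 and 415 CPM in CKO 1 to 3. Timm10, a chaperone that carries proteins to the inner membrane, had 50.01, 54.0 and 47.3 CPM in WT 1 to 3 against 83.2, 102 and 89.3 CPM in CKO 1 to 3. All libraries labelled CKO were above all labelled WT in both genes, with CKO 2 between the others for Timm17a and the highest for Timm10. Their log2 fold changes were 0.80 and 0.85, with limma's adjusted p of 0.0110 and 0.0249, each higher in 3 of 3 libraries. The adjusted p ran from 0.00276 to 0.232 for Timm17a and from 0.0207 to 0.2502 for Timm10. The call of Timm17a was lost without WT 2 (0.0605), CKO 1 (0.0537) or CKO 3 (0.0682). That of Timm10 was lost without WT 1 (0.10002), WT 2 (0.0844), WT 3 (0.0522), CKO 1 (0.0717) or CKO 3 (0.09996).

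Markers of other cells that the dissected cartilage could hold were counted beside the members. Of all genes, limma called 3.18% higher and 2.60% lower, and 11.2 and 10.1% were so at an unadjusted p under 0.05. Osteoblast markers, 7 of 8 tested, 0 called higher and 1 lower, summed to 906, 1061 and 1437 CPM in WT 1 to 3 against 1353, 552 and 1460.3 CPM in CKO 1 to 3, with Col1a2 the most abundant by its mean in WT. The markers did not go together, since Col1a2 fell, with 469.7, 586 and 759 against 327, 212 and 309 CPM (limma's adjusted p = 0.0191, log2 fold change -1.09, lower in 3 of 3), and Ibsp had 129, 82.5 and 109 against 708, 83.0 and 808 CPM, high in CKO 1 and CKO 3 alone. The call of Col1a2 was lost without WT 2 (0.0863) or CKO 3 (0.0594), with a range from 0.000319 to 0.160. Bglap was likewise high in CKO 1 and CKO 3 alone, with 5.80, 6.75 and 5.91 against 26.8, 2.89 and 28.6 CPM. Macrophage and osteoclast markers, 8 of 8 tested, 1 called higher (Cd68) and 0 lower, summed to 101, 103 and 120.0 CPM in WT 1 to 3 against 187, 181 and 196 CPM in CKO 1 to 3, with Ctsk the most abundant. Cd68 alone went from 8.70, 6.75 and 11.8 CPM in WT 1 to 3 to 76.3, 46.9 and 76.3 CPM in CKO 1 to 3. Ctsk overlapped, with 87.7, 95.3 and 81.9 against 88.0, 108 and 101 CPM. Csf1r, C1qa, C1qb, Mmp9 and Atp6v0d2 had few reads. Epidermis markers, 2 of 8 tested (Krt5 and Krt14 were not analysed here) and 1 called higher (Sbsn), summed to 42.8, 32.3 and 21.1 CPM in WT 1 to 3 against 119.7, 62.8 and 107 CPM in CKO 1 to 3. Krt10 was the most abundant in WT and Sbsn in CKO. Sbsn alone went from 2.90, 1.501 and 3.38 CPM in WT 1 to 3 to 83.9, 16.6 and 72.8 CPM in CKO 1 to 3, while Krt10 overlapped, with 39.1, 29.3 and 16.9 against 34.4, 44.0 and 31.2 CPM. Erythroid markers, 2 of 8 tested and 0 called at the adjusted or the unadjusted p, summed to 0.725, 5.25 and 0.845 CPM in WT 1 to 3 against 2.06, 28.9 and 6.07 CPM in CKO 1 to 3. Hba-a2 was the most abundant over all libraries through its 28.1 CPM in CKO 2. Endothelial markers, 1 of 6 tested (Kdr was not analysed here) and 0 called at either p, summed to 7.25, 15.8 and 12.7 CPM in WT 1 to 3 against 8.94, 9.38 and 13.9 CPM in CKO 1 to 3, with Egfl7 the most abundant. Markers of brown fat, a tissue rich in mitochondria, 2 of 5 tested and 0 called by limma (1 with an unadjusted p under 0.05), summed to 4.35, 5.25 and 7.60 CPM in WT 1 to 3 against 9.63, 24.5 and 9.53 CPM in CKO 1 to 3, with Cidea the most abundant and Ucp1 under the floor of 3 reads in every library. The part of these cells in the values of the members was not tested.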

How the data were processed

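RNA of 6 libraries, 3 per genotype, was processed by the authors with cutadapt 2.5, HISAT2 and featureCounts 1.6.3, per the labels, and the values were deposited as CPM for 15803 genes. The genome build and annotation are not given in the sources used here. Each CPM column was turned back into whole reads, to within 0.01 reads. Planned tests on counts gave way to limma 3.58.1 in R 4.3.3, with a trend, on log2(CPM + 1) for the genes that averaged 1 CPM or more, because the table holds CPM. The recovered reads went into edgeR 4.0.16 and DESeq2 1.42.0 as alternatives. The others were a pseudocount of 0.1, no filter, TMM scaling, the replicate number as a block, each library left out, and near-alike libraries averaged. Coordinates, exon lengths and overlaps are from GENCODE M21, and near-identical copies were searched with BLAST 2.17.0. Summaries used Python 3.11.15. Scripts were tested on simulated data.

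Besides the genes that the study measured by qPCR and the targeted gene, the text names called members, called genes of the other lists, the highest and lowest log2 fold change and the highest level in each complex, and isoform pairs. Members with a mean under 20 CPM were passed over for the extremes. Genes named beyond this rule were chosen after their values were seen. The members and lists were chosen with earlier results of these data known.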

Additional observations from a re-analysis of the deposited data

How the results depend on the processing

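The counts and the tested genes chosen by the naming rule were recomputed under 12 alternative settings, and 2 more that average near-alike libraries were chosen after seeing the data. The medians of the complexes were recomputed under fewer of them, summed ratios under TMM scaling and on leaving out single libraries only, and isoform shares and the other lists under none. Ndufa4 and Cox7a2l kept their direction in all of them and stayed past the adjusted threshold in 7 of 14 each. The count of called members, 2, was 4 with DESeq2 (7.69% of all genes called), 0 with CKO 1 and CKO 3 averaged (2.13%) and 0 with WT 1 and WT 2 averaged as well, where only 11 of 12197 genes were called. It was 0 to 17 on leaving out single libraries, with 1.75 to 10.8% of all genes called. The count past the fold criterion, 2, was 1 to 4 on leaving out single libraries. The median log2 fold change of the members was 0.041 to 0.24 on leaving out single libraries, that of complex I 0.022 to 0.24, of complex II 0.095 to 0.31, of complex III 0.16 to 0.25, of complex IV 0.027 to 0.22 and of complex V 0.059 to 0.15. The median of complex II was -0.017 with edgeR, which did not test Sdha. No summed ratio of a complex moved beyond the spread of the libraries.

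Some small log2 fold changes turned. On leaving out single libraries, Ndufaf4 ranged from -0.063 to 0.47, Sdhb from -0.089 to 0.022, Atp5h from -0.063 to 0.19, Cox4i1 from -0.16 to 0.052, Cox6a1 from -0.28 to 0.052 and Ndufa4l2 from -0.17 to 0.55. With both pairs averaged, Atp5h was at -0.032. The cause was not tested.

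With the replicate number as a block, 0 members and 385 of all genes were called, against 703 without it. Deviations of libraries with the same number correlated at 0.0378, -0.131 and -0.103, and not every library correlated best with its own number. The libraries are few and a library stood apart in each genotype, so these correlations cannot decide whether the numbers pair libraries. The paper states that littermates were compared, and the labels do not name the litter of a library. Depth limits Cox8b, Cox7a1, Ndufs1, Ndufv2, Sdha, Cox5a, Ndufb6 and Atp5k, where few reads leave large differences undetected.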
